A study of Mus musculus with 4 samples.

Results

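RNA from the urogenital sinus (UGS) of male mouse embryos at E18.5, when prostate budding is under way, was compared between Tbx18Gfp/Gfp mutants and wild type littermates over every gene with at least 1 FPKM in either library. FPKM counts sequenced fragments scaled to the length of the transcript and the depth of the library, so levels can be set side by side between genes. Of the 25819 rows of the deposited table, 14733 passed this filter, and these are the genes described here. The mutant carries GFP knocked into both copies of Tbx18, which makes a null allele in every cell, and both groups were from lines bred onto a B6C3-F1 hybrid background. Each library held RNA of the whole UGS pooled from 3 embryos, so epithelium, mesenchyme, muscle, nerve, vessels and blood were read together, and there was 1 library per genotype. A matching pair of libraries from E16.5 embryos, also 1 wild type and 1 Tbx18Gfp/Gfp, is given beside them where it shows which E18.5 library differed. With 1 library a side no test, replicate error or p-value could be computed, and every difference below is a difference between libraries.

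Tbx18 is a T-box transcription factor of embryonic mesenchyme, known for its part in forming the smooth muscle coat of the ureter. The UGS is the embryonic source of the prostate, the bladder neck and the urethra. It holds an epithelial tube with a mesenchyme around it, and mesenchyme and epithelium instruct each other through secreted ligands of the Hedgehog, Wnt, BMP and FGF families. Smooth muscle forms within that mesenchyme, and its contractile genes are switched on by serum response factor and its cofactor myocardin at a short element called the CArG box.

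Before the genes, the libraries themselves differed in depth and in character. From single reads on olfactory receptor genes the E18.5 wild type library held an estimated 29000000 mapped reads and the E18.5 Tbx18Gfp/Gfp library 52400000, against 64000000 in E16.5 wild type and 55700000 in E16.5 Tbx18Gfp/Gfp. Over 15023 genes that reached 1 FPKM in any library, E18.5 wild type lay at least 2-fold below each of the other 3 libraries for 1837 genes and at least 2-fold above each for 271 genes. The same counts for E18.5 Tbx18Gfp/Gfp were 35 below and 59 above, and neither E16.5 library passed 68 in either direction. The E18.5 wild type library therefore stood apart from the other 3, and a ratio of the E18.5 libraries alone does not show which of them moved. The levels in all 4 libraries are given for that reason. Both E18.5 libraries held the defining genes of the UGS, with the epithelial genes Shh, Foxa1 and Trp63 at 18.4, 30.0 and 15.5 FPKM in wild type against 15.02, 15.3 and 8.39 FPKM in mutant UGS. The mesenchymal genes Hoxd13 and Col1a1 were at 67.4 and 777 FPKM in wild type against 36.8 and 989 FPKM in mutant UGS. The defining markers of germ and Leydig cells, Ddx4, Dazl and Insl3, were at 0.133 FPKM or less in both E18.5 libraries, while 3 other genes of the testis list passed 1 FPKM, Star (1.09 and 1.27 FPKM), Sox8 (1.77 and 1.90 FPKM) and Dhh (0.432 and 1.44 FPKM). Adipoq of fat cells was listed at 0 in both.

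**Figure D1:**
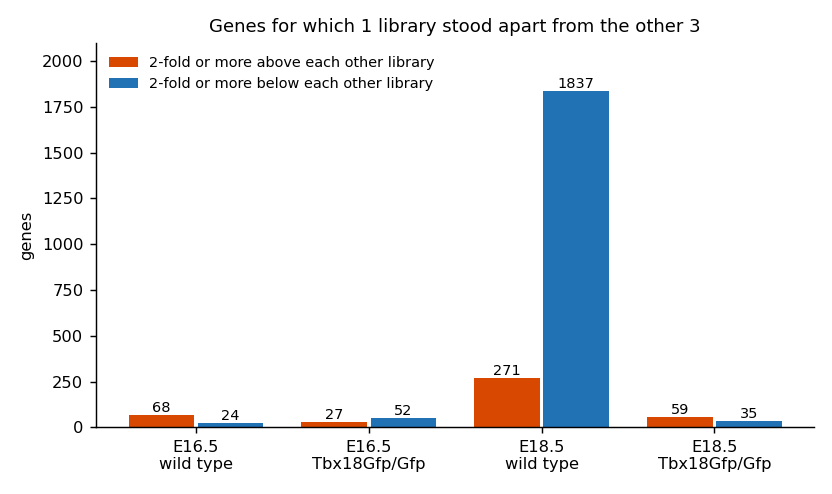
Bars give the number of genes, of 15023 with at least 1 FPKM in any library, for which the named library was at least 2-fold above (orange) or below (blue) each of the other 3. E18.5 wild type had 1837 genes below and 271 above, and the other libraries had at most 68 in either direction.

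Across the 14733 genes the mutant value was mostly the larger. The log2 ratio of mutant to wild type FPKM had a median of 0.31, a ratio of 1.24, and the mutant was higher for 10233 genes (69.5%) and lower for 4500. At the 2-fold threshold 2231 genes (15.1%) were higher and 426 (2.89%) lower in the mutant, with 248 and 89 past 4-fold and 64 and 39 past 8-fold. The middle of the distribution was narrow, from -0.09 at the 25th percentile to 0.75 at the 75th. Relative to the median of all genes, 1152 genes (7.82%) were at least 2-fold higher and 828 (5.62%) lower. With a fitted trend over the length and GC content of transcripts subtracted the counts were 647 higher (4.39%) and 909 lower (6.17%), so the direction of the imbalance was not the same under each scaling. Reads could be estimated only for genes with a transcript length, 93.8% of the genes kept. Among these, few 2-fold genes rested on sparse reads, with fewer than 10 in the lower library for 60 of the higher and 11 of the lower genes. Rows without a length, LOC rows among them, had no estimate and were not counted.

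**Figure D2:**
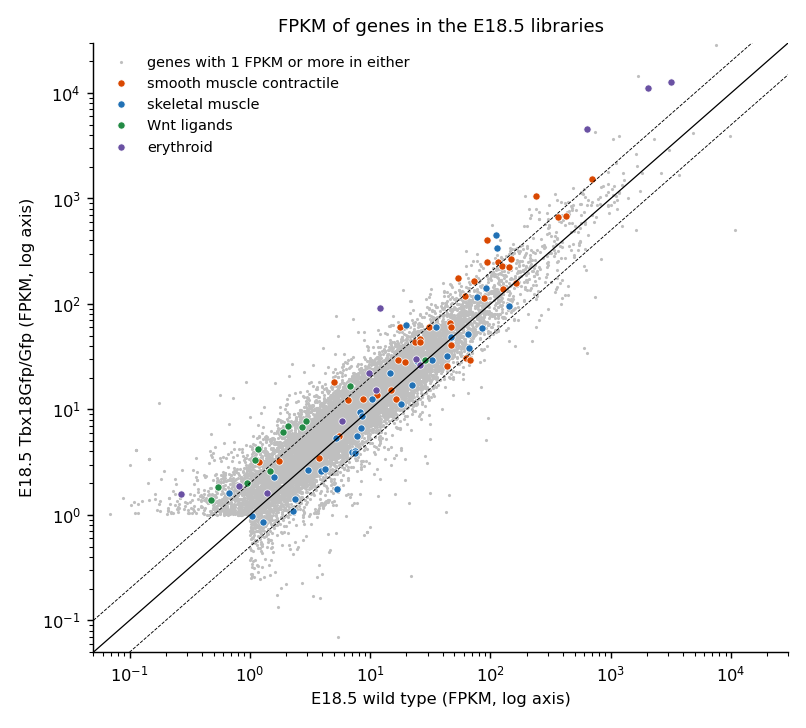
Each grey point is a gene by its FPKM in E18.5 wild type (x, log axis) and E18.5 Tbx18Gfp/Gfp (y, log axis), with members of 4 gene lists in colour; the solid line marks equal levels and dashed lines mark 2-fold. Genes under 0.05 FPKM in either library are not drawn, and most Wnt ligands and the abundant erythroid genes lie above the upper dashed line.

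GC content was the feature of a gene that the ratio followed most closely. In the lowest of 10 bins of genes by GC content, up to 41.4% GC, the median log2 ratio was -0.06 and 2.03% of genes were at least 2-fold higher in the mutant. It was larger in each bin after that, reaching 0.87 in the highest bin (from 58.0% GC), where 40.9% of genes were at least 2-fold higher. At E16.5 the medians of the same bins stayed between 0.01 and 0.02. For E18.5 Tbx18Gfp/Gfp over E16.5 wild type they lay between 0.00 and -0.12, so of these 3 ratios the one taken against E18.5 wild type had the steep gradient. Length showed a weaker gradient, from a median of 0.53 in the bin of shortest transcripts to 0.04 in that of the longest. Mean FPKM showed little, with bin medians between 0.22 and 0.37. By chromosome the median ran from 0.08 on the X chromosome and 0.11 on chromosome 18 to 0.44 on chromosome 11. GC content thus moved with most results below, and its part in each was not tested. The median of each list with the trend subtracted is drawn in the plot of list medians, and is given in the text for some lists.

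**Figure D3:**
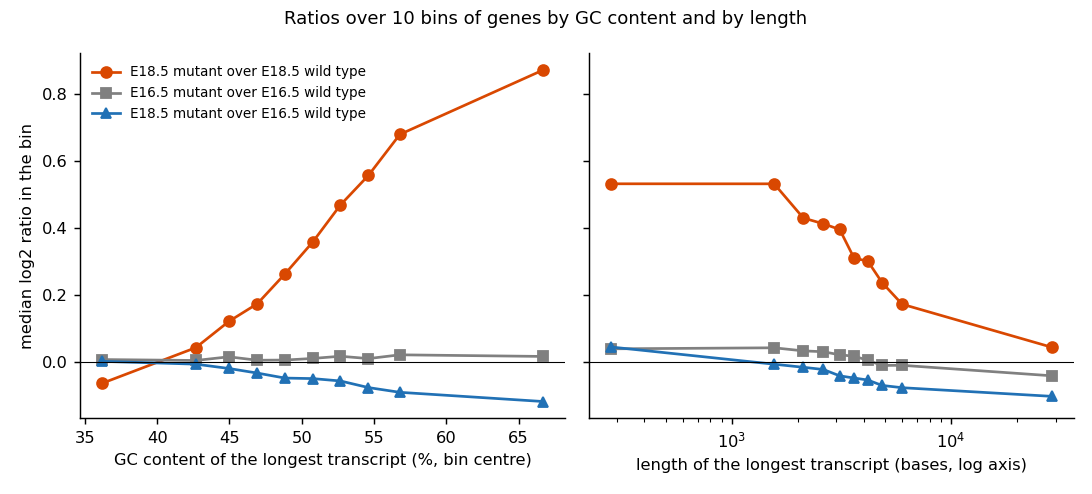
Points are medians of the log2 ratio over 10 bins of genes by GC content (left, %) or by transcript length (right, bases, log axis) for 3 pairs of libraries. The E18.5 mutant over wild type medians (orange) climb from -0.06 to 0.87 with GC content, while the E16.5 medians (grey) lie between 0.01 and 0.02 over GC content and between -0.04 and 0.04 over length.

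Where the 4 libraries are read together, 1949 of the 2231 genes that were 2-fold higher (87.4%) had an E18.5 mutant level within 1.5-fold of both E16.5 libraries, and for 1768 (79.2%) E18.5 wild type lay at least 2-fold below both. In only 59 (2.64%) did E18.5 Tbx18Gfp/Gfp lie at least 2-fold above both E16.5 libraries, the group in which the mutant library itself stood out. Among the 426 genes that were 2-fold lower, E18.5 wild type was at least 2-fold above both E16.5 libraries for 271 and the mutant at least 2-fold below both for 13.

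Smooth muscle genes were a group in which the E18.5 mutant library itself was high. Of 39 contractile genes with at least 1 FPKM, 32 were higher in the mutant, 10 at least 2-fold, and 2 were at least 2-fold lower, with a median log2 ratio of 0.80 against 0.31 for all genes. E18.5 Tbx18Gfp/Gfp was the highest of the 4 libraries for 28 of the 39 (71.8%, against 20.4% of all genes), and E16.5 Tbx18Gfp/Gfp the lowest for 32. The summed level of the list was 3130 FPKM in E16.5 wild type, 2190 FPKM in E16.5 mutant, 3550 FPKM in E18.5 wild type and 7107 FPKM in E18.5 mutant. Relative to all genes the median was 0.50, with 7 genes at least 2-fold higher and 3 lower. With the length and GC trend subtracted the median was 0.29, with 5 higher and 3 lower.

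Actg2, the enteric smooth muscle gamma actin, had 200 FPKM in E16.5 wild type, 51.6 in E16.5 mutant, 237 in E18.5 wild type and 1064 in E18.5 Tbx18Gfp/Gfp UGS. At E18.5 this is a log2 ratio of 2.16, from an estimated 9188 reads in wild type and 74365 in the mutant. The wild type level was nearly the same at both stages, and the mutant was the lowest library at E16.5 and the highest at E18.5. Acta2, the vascular and visceral smooth muscle alpha actin and the most abundant gene of the list, had 597, 381, 698 and 1526 FPKM in the same order of libraries, a log2 ratio of 1.13 at E18.5. Tagln, which encodes the actin-binding protein transgelin, had 107, 55.6, 93.4 and 401 FPKM (2.104), and Cnn1, calponin, had 53.8, 21.1, 53.3 and 178 FPKM (1.74). For all of these the order was the same, with E16.5 mutant lowest, the wild type libraries between and E18.5 mutant highest. The intermediate filament genes Synm (3.796, 1.246, 4.98 and 18.3 FPKM, 1.88) and Des (83.5, 47.3, 72.6 and 165 FPKM, 1.18) showed it as well.

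The thick filament and its regulators, and the actin-binding tropomyosins and caldesmon, had smaller ratios than the actins. Myh11, the smooth muscle myosin heavy chain, was at 86.4, 31.3, 149 and 264 FPKM, a log2 ratio of 0.83. Its light chain Myl9 was at 361 FPKM in E18.5 wild type and 669 FPKM in the mutant (0.89), and the kinase of that light chain, Mylk, at 128 and 140 FPKM (0.13). The tropomyosins Tpm1 and Tpm2 gave 0.71 and 0.66. Cald1, caldesmon, had 162 and 158 FPKM, a ratio of -0.04. Below the line were Nexn (-0.74), the small heat shock protein Hspb6 (63.1 and 31.1 FPKM, -1.02) and the calmodulin-binding peptide Pcp4 (67.6 and 29.4 FPKM, -1.20). Hspb6 and Pcp4 were the 2 members at least 2-fold lower, and in both the E18.5 wild type library was the highest of the 4. The regulators of the programme did not follow the contractile genes, with Srf at 13.7 and 18.6 FPKM (0.44), Myocd at 10.98 and 10.6 FPKM (-0.05) and Mkl1 at 8.28 and 8.42 FPKM (0.02).

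**Figure D4:**
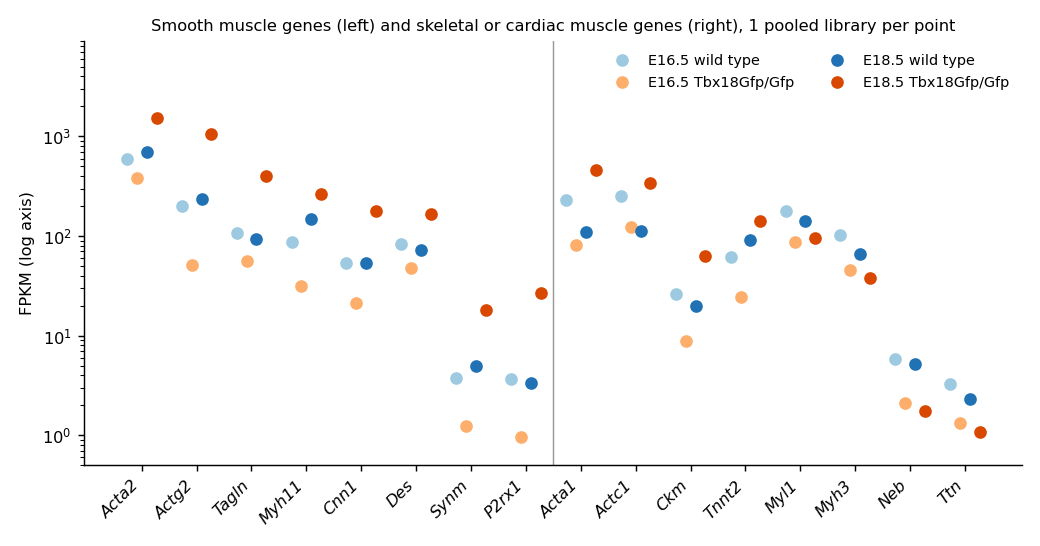
Each point is the FPKM (log axis) of a gene in 1 pooled library, smooth muscle genes to the left of the line and skeletal or cardiac muscle genes to the right. For each smooth muscle gene drawn the E18.5 mutant (dark orange) is highest and the E16.5 mutant (light orange) lowest, from 51.6 to 1064 FPKM for Actg2, while Myl1, Myh3, Neb and Ttn are lower in the E18.5 mutant than in E18.5 wild type. The genes drawn are a selection. Over the 39 smooth muscle list genes the E18.5 mutant was highest for 28 and E18.5 wild type for 7.

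The primer pairs that the study used for RT-qPCR of the muscle genes are shown because these genes carry the muscle results. Each pair matched mouse transcripts, giving products of 192 bases for Actg2, 62 for Cnn1 and 134 for Acta1.
Actg2 forward: ccgccctagacatcagggt
Actg2 reverse: tcttctggtgctactcgaagc
Cnn1 forward: tctgcacattttaaccgaggtc
Cnn1 reverse: gccagcttgttctttacttcagc
Acta1 forward: cccaaagctaaccgggagaag
Acta1 reverse: ccagaatccaacacgatgcc

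The CArG box was looked for, by its consensus, in the 250 bases before each start site given by RefSeq on GRCm38.p6. The consensus is its own reverse complement, so a search of 1 strand covers both. It was found in 1.47% of all 32851 such windows, in 3 of 31 smooth muscle list genes with a window (9.68%) and in 3 of 26 skeletal muscle list genes (11.5%). Among genes at least 2-fold higher in the mutant the share was 1.61%, against 1.19% of all genes with 1 FPKM in either E18.5 library and a window. Some smooth muscle genes, among them Actg2, Tagln and Myh11, had no window. A match is a description of the letters and not a site of binding. The windows of Acta1, on the minus strand at chr8:123894776-123895025, and Actc1, on the minus strand at chr2:114052876-114053125, are printed because these sarcomeric actins were both at least 2-fold higher and hold the box, in capitals, 73 and 47 bases upstream of the start site.
Acta1: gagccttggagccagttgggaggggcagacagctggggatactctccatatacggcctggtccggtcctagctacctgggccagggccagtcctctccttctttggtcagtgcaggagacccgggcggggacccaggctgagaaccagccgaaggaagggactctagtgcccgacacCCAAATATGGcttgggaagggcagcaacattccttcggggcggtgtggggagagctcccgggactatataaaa
Actc1: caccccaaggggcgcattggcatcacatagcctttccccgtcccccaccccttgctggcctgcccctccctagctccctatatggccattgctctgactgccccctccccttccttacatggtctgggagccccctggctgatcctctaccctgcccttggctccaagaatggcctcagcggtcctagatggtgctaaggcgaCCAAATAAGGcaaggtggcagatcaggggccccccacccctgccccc

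To find the other genes in which the mutant library stood out, the 11805 named protein-coding genes with a transcript of at least 1000 bases were searched for an E18.5 mutant level of at least 3 FPKM and at least 2-fold above each of the other 3 libraries, a rule set after the values were seen. It returned 26 genes, and 6 of them were on the smooth muscle list (Acta2, Actg2, Tagln, Csrp1, Cnn1 and Synm), as were 37 of the 11805 searched. Of the 26, 16 were on no list. A window before the start site was given for 15 of the 26, and 1 of these, a gene on no list, held the CArG box. The box was therefore not found for any of the 6 smooth muscle genes, of which Actg2 and Tagln had no window. P2rx1, the ATP-gated channel through which nerves contract bladder muscle, led the 26 by fold over the next library. It had 3.66 FPKM in E16.5 wild type, 0.959 in E16.5 mutant, 3.32 in E18.5 wild type and 26.6 in E18.5 Tbx18Gfp/Gfp, a log2 ratio of 3.00 at E18.5 and 7.25-fold above the next library. Popdc2 and Bves, members of the Popeye family of membrane proteins of striated and smooth muscle, had 27.7 and 11.2 FPKM in the mutant against 6.43 and 3.86 FPKM in wild type. Ckb and Ckm, brain and muscle creatine kinase, were at 138 and 62.6 FPKM in the mutant against 32.1 and 19.9 FPKM. Others were the focal adhesion adaptor Lims2 (9.86 and 2.59 FPKM), the integrin subunit Itgb3 (9.96 and 3.39 FPKM), the water channel Aqp1 (22.3 and 8.34 FPKM), the growth suppressor Wfdc1 (12.005 and 2.49 FPKM), the chemoattractant Rarres2 (103 and 39.8 FPKM) and Tinagl1 (59.2 and 19.7 FPKM). Applied in the other direction the same rule returned Cxcl15 alone, at 12.1, 7.92, 7.97 and 3.93 FPKM. For E18.5 wild type the rule returned 1078 genes below and 39 above the other 3 libraries. The 1078 had a median GC content of 56.1%, the 26 of 53.3% and all 11805 of 49.8%.

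Other receptors and channels of bladder muscle were mixed. Of 21, 12 were higher in the mutant and 3 at least 2-fold, among them P2rx1 and the potassium channel Kcnj8 (6.35 and 13.1 FPKM), with a median of 0.17. Of the muscarinic receptors, Chrm2 was nearly equal and Chrm3 higher in the mutant, with Chrm2 at 2.80 and 2.77 FPKM and Chrm3 at 0.606 and 1.16 FPKM. The calcium channel subunits went opposite ways, Cacna1c at 0.73 and Cacnb2 at -0.78. The endothelin receptors Ednra (-0.10) and Ednrb (-0.42) were lower in the mutant.

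Skeletal muscle genes, which mark the striated muscle of the urethra and pelvic floor, divided within the list. Of 36 genes, 15 were higher in the mutant, 4 at least 2-fold, and 2 at least 2-fold lower, with a median of -0.25, -0.55 relative to all genes and -0.67 with the trend subtracted, where 12 were at least 2-fold lower. The 4 were Acta1, Actc1, Ckm and Myoz1. Acta1, skeletal alpha actin, had 231, 81.8, 110.5 and 455 FPKM in E16.5 wild type, E16.5 mutant, E18.5 wild type and E18.5 mutant, a log2 ratio of 2.04. Actc1, cardiac alpha actin, had 250.01, 122, 113 and 341 FPKM (1.59). Tnnt2, cardiac troponin T, was also higher in the mutant (91.2 and 143 FPKM, 0.65). The giant proteins of the sarcomere went the other way, with Neb, nebulin, at 5.78, 2.11, 5.25 and 1.76 FPKM (-1.58) and Ttn, titin, at 3.30, 1.32, 2.29 and 1.09 FPKM (-1.08). Embryonic myosin Myh3 (66.4 and 38.2 FPKM, -0.80), Myl1 (142 and 95.2 FPKM, -0.57) and Smyd1 (-0.86) were on the same side. E16.5 wild type was the highest library for 29 of the 36, and E18.5 mutant the lowest for 15. The lineage factors were near the middle, Myod1 at 3.34 and 3.63 FPKM (0.12) and Myog at 17.5 and 12.8 FPKM (-0.45), and Pax7 of satellite cells was under 1 FPKM in every library.

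A median between 0 and 0.31 in a list below is above 0 as deposited and below 0 relative to all genes, so the direction of such a list turns with the scaling. Over all genes 69.5% were higher in the mutant, 15.1% at least 2-fold higher and 2.89% at least 2-fold lower. A list with counts near these shares did not stand apart from all genes. A gene under 1 FPKM in either E18.5 library passed the filter only through the other, which fixed its direction.

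**Figure D5:**
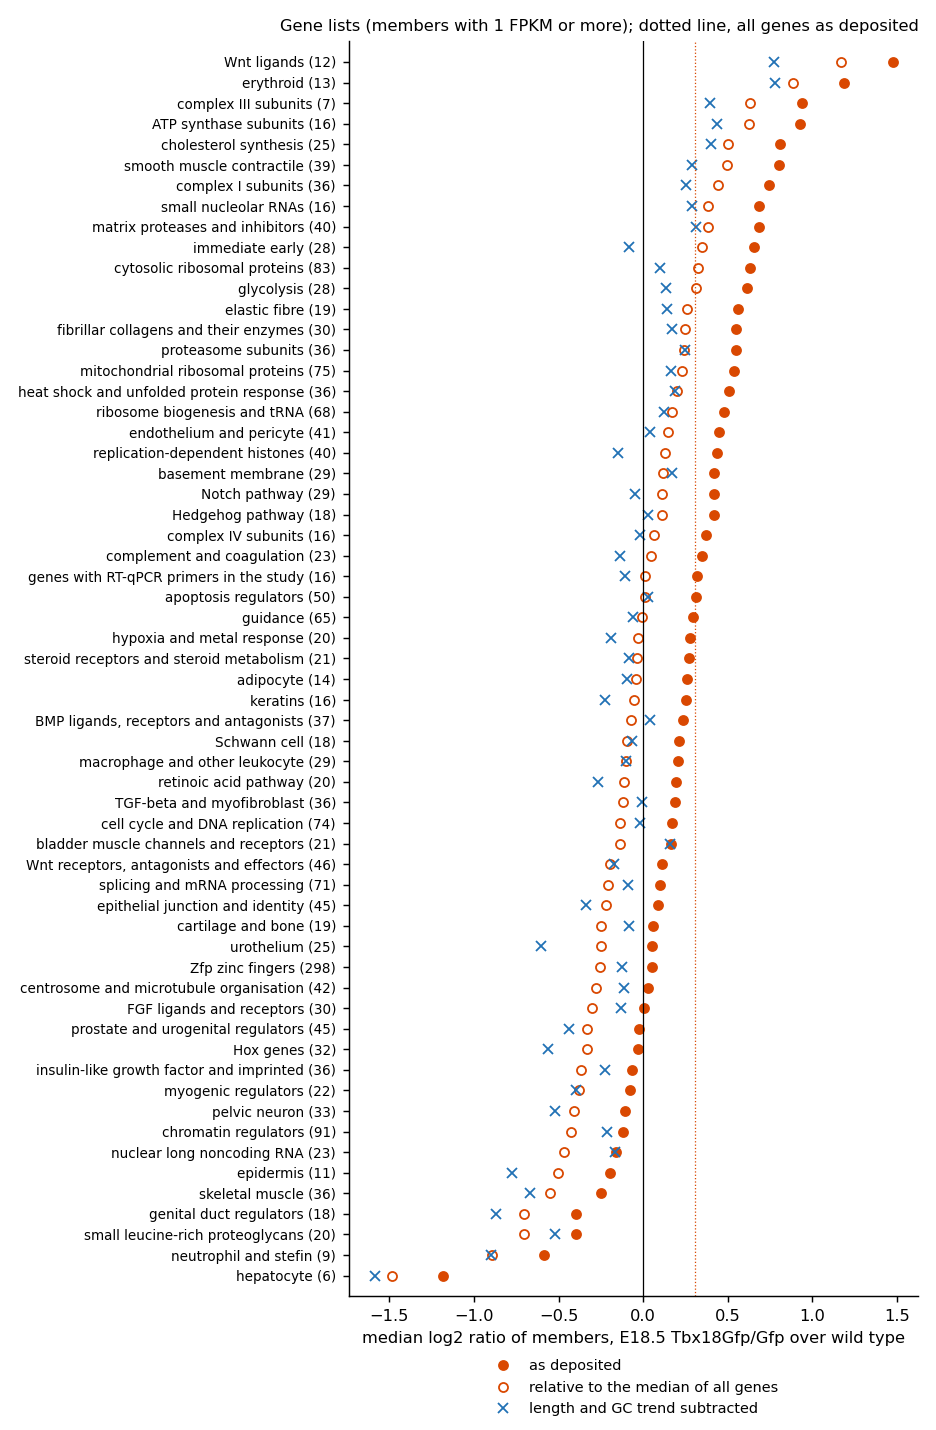
Each row is a gene list with its number of members at 1 FPKM or more, and points give the median log2 ratio of E18.5 Tbx18Gfp/Gfp over wild type as deposited (filled), relative to the median of all genes (open) and with the length and GC trend subtracted (crosses). Wnt ligands and erythroid genes have the highest medians (1.48 and 1.19), hepatocyte genes the lowest (-1.18), and smooth muscle genes stay above 0 on all 3 scales. The hepatocyte median rests on 6 genes, some of which passed the filter only through E18.5 wild type. Wnt ligands under 1 FPKM in E18.5 wild type passed it only through the mutant. MicroRNA rows are left out because several were listed at or near 0.

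Epithelial genes gave no common direction. Of 25 urothelial genes, 14 were higher and 0 at least 2-fold, 2 were at least 2-fold lower (Klf5 and Sprr1a), and the median was 0.05, or -0.60 with the trend subtracted. The uroplakins, which form the plaques of the bladder surface, had similar levels for Upk1b (138 and 134 FPKM), Upk2 (72.1 and 77.6 FPKM) and Upk1a (108 and 125 FPKM), while Upk3a was at 56.8 FPKM in wild type against 110.35 FPKM in mutant UGS (0.96). The keratins of simple epithelium Krt8 (59.0 and 118 FPKM, 1.00) and Krt18 (82.0 and 128 FPKM, 0.64) were higher in the mutant, and the basal keratin Krt5 was at 59.8 and 71.4 FPKM (0.26). Krt8 was at 90.2 and 90.4 FPKM at E16.5, so E18.5 wild type was the lowest of the 4 libraries for it and E18.5 mutant the highest. Klf5, a transcription factor of bladder and prostate epithelium, had 23.1, 18.1, 65.2 and 14.3 FPKM, a log2 ratio of -2.19, and Sprr1a, a barrier protein, had 199, 141, 822 and 268 FPKM (-1.61). For both genes E18.5 wild type was the highest library. Foxa1 (30.0 and 15.3 FPKM, -0.97), Trp63 (15.5 and 8.39 FPKM, -0.89) and the surface antigen Psca (282 and 163 FPKM, -0.79) were also lower in the mutant. Among 45 junction and identity genes the median was 0.09, with Cldn7 at 1.16 and Cdh1, E-cadherin, at -0.66. No junction gene was highest in E18.5 Tbx18Gfp/Gfp of the 4 libraries. Of 11 epidermal genes, 5 were higher and 1 was at least 2-fold lower (Calml3, 1.42 and 0.551 FPKM).

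Pigr, which carries immunoglobulin across epithelia, was the 1 row with an ordinary protein-coding gene name among the 15 lowest ratios, at 1.48, 1.89, 21.2 and 1.30 FPKM (-4.02). Ceacam1, an epithelial adhesion molecule, had 11.5, 8.49, 21.7 and 6.34 FPKM (-1.78), and was found by a ranking of coding genes made after the values were seen. Like Klf5, both were highest in E18.5 wild type.

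Regulators of prostate and urogenital development were centred near 0, with 22 of 45 higher, 5 at least 2-fold higher, 2 at least 2-fold lower and a median of -0.03, or -0.44 with the trend subtracted. Pitx1, a homeobox factor known from the hindlimb, had 7.44, 3.96, 2.85 and 9.57 FPKM (1.75) and Esr1, estrogen receptor alpha, 2.18, 3.76, 1.27 and 3.04 FPKM (1.26). The pair at least 2-fold lower was Sox9, an early factor of prostate buds, at 11.3, 11.8, 16.7 and 8.26 FPKM (-1.02), and Tbx15, a T-box relative of Tbx18, at 5.57, 2.24, 4.31 and 1.87 FPKM (-1.20). Tbx15 was lower in the mutant at both stages. Tbx18 itself was at 3.16 and 2.93 FPKM (-0.11), so its level does not separate the genotypes in this table. The T-box genes Tbx2 and Tbx3 had log2 ratios of 0.66 and -0.03.

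Of the genes with RT-qPCR primers, 16 passed the filter, 6 of them at least 2-fold higher and 2 at least 2-fold lower. Besides the muscle genes and Pitx1, the higher ones included the serine protease Prss27 (2.74, 1.08, 0.589 and 1.67 FPKM, 1.51). Krt20, Dpt, Irx2 and Wt1 lay between -0.48 and 0.39. The study chose these genes on the same libraries, so their directions in these libraries are not independent evidence. The paper also measured such genes by RT-qPCR in individual animals of the sequenced pools. It reports close accord with the pooled values, and those measurements were not used here.

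Hox genes set the position of tissues along the axis, and the posterior members mark the UGS. Of 32, 14 were higher, 4 at least 2-fold higher and 1 at least 2-fold lower, with a median of -0.03, or -0.56 with the trend subtracted. Hoxa11 (5.53 and 16.51 FPKM, 1.58), Hoxa6 (0.213 and 1.46 FPKM, 2.77), Hoxc11 (1.03 and 4.22 FPKM, 2.03) and Hoxb13 (0.940 and 1.91 FPKM, 1.02) were the 4, and Hoxb8 the other (17.8 and 7.79 FPKM, -1.19). Hoxa6 and Hoxb13 passed the filter only through the mutant, which fixed their direction. The abundant Hoxd13 was at -0.87 and Hoxa13 at 0.00. None of the 32 was highest in E18.5 Tbx18Gfp/Gfp.

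Wnt ligands had the highest median of any signalling list. All 12 were higher in the mutant, 10 at least 2-fold, with a median log2 ratio of 1.48, 1.17 relative to all genes and 0.77 with the trend subtracted. The count at least 2-fold higher was 2 of 12 with the trend subtracted. Members under 1 FPKM in E18.5 wild type passed the filter only through the mutant, so their direction was fixed by it. In each of the 12, E18.5 wild type was the lowest of the 4 libraries, as it was for 63.7% of all genes, and against E16.5 wild type the E18.5 mutant median was -0.09. Wnt4, a ligand of kidney and duct development, had 22.7, 19.4, 6.79 and 16.6 FPKM (1.29), Wnt6 had 7.39, 7.91, 2.08 and 6.95 FPKM (1.74), and Wnt7b, an epithelial ligand, had 8.49, 9.25, 2.70 and 6.76 FPKM (1.32). Wnt5b, at 4.32, 6.01, 1.90 and 6.05 FPKM (1.67), and Wnt2, at 5.11, 5.87, 2.95 and 7.79 FPKM (1.40), were at or above their E16.5 levels in the mutant. The lowest ratio was that of Wnt5a, a noncanonical ligand and the most abundant of the 12, at 31.1, 34.7, 28.5 and 29.2 FPKM (0.03). The receptors, antagonists and effectors did not share this, with 29 of 46 higher, 2 at least 2-fold (Dvl1, 1.43, and Notum, 1.06) and a median of 0.11. The nuclear effectors Lef1 (-0.92) and Tcf7l2 (-0.85) were at the other end.

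In the Hedgehog pathway, through which the epithelium signals to mesenchyme, 13 of 18 genes were higher and 3 at least 2-fold, with a median of 0.42. The ligand Shh was at 18.4 and 15.02 FPKM (-0.29) and the receptor Ptch1 at 20.01 and 19.7 FPKM (-0.03). Among the targets, Gli1 was at 26.4, 30.3, 12.4 and 25.01 FPKM (1.01) and Hhip at 11.4 and 9.97 FPKM (-0.19). Ptch1 and Gli1, which report the same signal, thus had unlike ratios, and the low value of Gli1 was that of E18.5 wild type. The ligand Dhh was also past 2-fold (0.432 and 1.44 FPKM).

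BMP genes had 27 of 37 higher (73%, against 69.5% of all genes) and 5 at least 2-fold, with a median of 0.23. Id3, an immediate target of BMP signals, was at 149, 198, 40.5 and 159.6 FPKM (1.98), and the antagonist Chrd, chordin, at 9.30, 10.6, 3.76 and 9.46 FPKM (1.33). The ligand Bmp4, which restrains prostate budding, was at 27.7 and 32.0 FPKM (0.21) and the receptor Bmpr2 at 24.3 and 13.3 FPKM (-0.87). FGF genes were centred at 0.01, with 16 of 30 higher and 1 at least 2-fold (Fgfr3, 3.58 and 7.54 FPKM, 1.07). Fgf10, the mesenchymal ligand that drives prostate outgrowth, was at 6.83 and 6.42 FPKM (-0.09) and its receptor Fgfr2 at 30.9 and 31.0 FPKM (0.00). In the Notch pathway 23 of 29 were higher and 5 at least 2-fold, with a median of 0.42. Dll4, the endothelial ligand, was at 0.925 and 2.17 FPKM and Notch1 at 7.72 and 8.30 FPKM (0.11).

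The TGF-beta and myofibroblast list had 27 of 36 higher (75%, against 69.5% of all genes), 5 at least 2-fold higher and 1 at least 2-fold lower, with a median of 0.19. Ctgf, a matricellular target of TGF-beta, was at 11.8, 13.6, 8.85 and 20.7 FPKM (1.22), Ltbp2 at 1.27 and 3.63 FPKM (1.52) and S100a4 at 1.81 and 6.03 FPKM (1.73). The lower member was the fibroblast surface protein Thy1 (46.6 and 21.8 FPKM, -1.10). The ligands were less far apart, Tgfb2 at -0.68 and Tgfb3 at 0.50. Retinoic acid genes were centred at 0.19 with 14 of 20 higher and 2 at least 2-fold, Rarres2 and the receptor Rxrb (5.35 and 16.1 FPKM, 1.59). Steroid genes were centred at 0.27 with 15 of 21 higher and 2 at least 2-fold, Esr1 and Hsd11b1. Srd5a2, which makes dihydrotestosterone, was at 8.77 and 10.6 FPKM (0.27).

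Extracellular matrix genes were mostly higher in the mutant, as were 69.5% of all genes, except for the small proteoglycans. Among fibrillar collagens and the enzymes that process them, 27 of 30 were higher and 6 at least 2-fold, with a median of 0.55, and E18.5 mutant was the highest library for 20. Relative to all genes, and with the trend subtracted, 0 were at least 2-fold higher, and the medians were 0.25 and 0.17. The most abundant, Col3a1 and Col1a1, were at 826 and 777 FPKM in wild type against 1278 and 989 FPKM in mutant UGS, and the crosslinking enzyme Loxl1 at 25.8, 28.9, 13.8 and 32.7 FPKM (1.24). Elastic fibre genes had 16 of 19 higher and 6 at least 2-fold (median 0.56). Relative to all genes 11 of the 19 were higher (median 0.26), and with the trend subtracted the median was 0.14. Eln, elastin, was at 159, 229.5, 149 and 285 FPKM (0.94) and Emilin1 at 66.1, 71.5, 20.3 and 64.2 FPKM (1.66). Eln was highest in E18.5 mutant, whereas for Emilin1 only E18.5 wild type differed from the rest. Matrix proteases and inhibitors had 35 of 40 higher and 10 at least 2-fold (median 0.69), among them Mmp17 (1.60 and 5.27 FPKM, 1.72) and Mmp23 (5.87 and 18.1 FPKM, 1.62). Basement membrane genes had 23 of 29 higher and 0 at least 2-fold (median 0.42, or 0.12 relative to all genes). The small leucine-rich proteoglycans and their companions were the reverse, with 6 of 20 higher and a median of -0.40. Dcn, decorin, was at 527, 624, 967 and 722 FPKM (-0.42) and Bgn, biglycan, at 189, 224, 383 and 271 FPKM (-0.50). E18.5 wild type was the highest library for 14 of the 20 (70% against 22.4% of all genes), and the median of E18.5 mutant over E16.5 wild type was 0.31.

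Blood cells were a large difference between the libraries. All 13 erythroid genes were higher in the mutant and 8 at least 2-fold, counting Hbb-y, listed at 0 in wild type, with a median of 1.19. The summed level of the list was 18040 FPKM in E16.5 wild type, 28997 in E16.5 mutant, 5938 in E18.5 wild type and 28598 in E18.5 mutant. The alpha globin Hba-a1 was at 8812, 14169, 3159.5 and 12700 FPKM (2.01), the beta globin Hbb-b1 at 3348, 5337, 632 and 4510 FPKM (2.84), and the heme synthesis gene Alas2 at 59.2, 103, 11.95 and 91.5 FPKM (2.94). The 2 alpha globin rows and the beta globin rows come from near-identical genes, and reads may have been divided among them. With the trend subtracted the median was 0.78. E18.5 wild type was the lowest library for 12 of the 13, against 63.7% of all genes. In bulk RNA, fewer cells of a type and less RNA per cell cannot be told apart, and this holds for every cell type named here. Whether the amount of blood in the dissected tissue differed was not tested.

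Endothelial and pericyte genes had 31 of 41 higher and 10 at least 2-fold, with a median of 0.45 and summed levels of 447 FPKM in wild type against 541 FPKM in mutant UGS. The members divided, since Cldn5 (2.84 and 9.68 FPKM, 1.77) and Vwf (1.16 and 4.26 FPKM, 1.88) were far apart while the defining genes Pecam1 (30.6 and 28.9 FPKM, -0.08) and Cdh5 (28.4 and 24.95 FPKM, -0.19) were not. Macrophage and other leukocyte genes had 22 of 29 higher (75.9%, against 69.5% of all genes) and 7 at least 2-fold, with a median of 0.20 and sums of 157 and 194 FPKM. C1qa was at 11.7, 14.9, 6.23 and 15.1 FPKM (1.27) and Cd68 at 4.65, 4.75, 9.54 and 5.45 FPKM (-0.81), so markers of the same cell had opposite ratios. Neutrophil and stefin genes were all 9 lower in the mutant, 2 at least 2-fold, with a median of -0.59 and sums of 35.6 and 24.6 FPKM, and E16.5 mutant was the highest library for all 9. S100a8 was at 4.57, 31.1, 6.39 and 3.54 FPKM (-0.85). Hepatocyte genes were low, with 2 of 6 higher, 3 at least 2-fold lower and a median of -1.18, Alb at 1.01, 7.13, 2.92 and 0.626 FPKM (-2.22) and Apoa1 at 0.669, 3.31, 1.21 and 0.247 FPKM. The 3 that were at least 2-fold lower, Alb and Apoa1 among them, passed the filter only through E18.5 wild type, which fixed their direction. With 1 FPKM required in both E18.5 libraries the median turned positive. Complement and coagulation genes had 15 of 23 higher and 5 at least 2-fold, with a median of 0.35.

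Pelvic neuron and genital duct genes were more often lower in the mutant than higher, and Schwann cell genes were not. Of 33 pelvic neuron genes 13 were higher, 2 at least 2-fold higher and 2 at least 2-fold lower, with a median of -0.11. The 2 lower were the peptide transmitter Npy (74.0, 90.8, 261 and 78.1 FPKM, -1.74) and the synaptic protein Snap25 (36.3, 28.0, 65.0 and 31.3 FPKM, -1.05), both highest in E18.5 wild type. The higher were Uchl1 (65.9 and 143 FPKM, 1.12) and the vesicular acetylcholine transporter Slc18a3 (3.76 and 8.60 FPKM, 1.20), both lowest in E18.5 wild type. The neuronal marker Stmn2 was at 115 and 109.8 FPKM. Schwann cell genes had 10 of 18 higher with a median of 0.21, and Sox10 was at 7.16 and 6.18 FPKM (-0.21). Regulators of genital ducts had 6 of 18 higher and a median of -0.40, with Pax2 (2.72 and 2.005 FPKM), Pax8 (4.60 and 3.28 FPKM) and Emx2 (11.2 and 6.89 FPKM) lower in the mutant and Hoxa11 and Wnt9b at least 2-fold higher. Cartilage and bone genes were centred at 0.06, with 10 of 19 higher, and adipocyte genes at 0.26, with 10 of 14 higher. Fabp4, shared by fat and vessels, was at 94.7 and 98.4 FPKM.

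Genes of energy and protein supply, which every cell uses, had medians above that of all genes as deposited. Of the mitochondrial respiratory chain, complex I had 29 of 36 higher and 10 at least 2-fold (median 0.75), ATP synthase 14 of 16 higher and 7 at least 2-fold (0.93), complex III 5 of 7 higher (0.94) and complex IV 11 of 16 higher (0.37). Complex II had all 4 higher, with a median of 0.95. E18.5 mutant was the highest library for all 4 of complex II, 87.5% of ATP synthase and 75% of complex I genes, against 20.4% of all genes. With the trend subtracted the medians were 0.25 for complex I, 0.47 for complex II, 0.40 for complex III, -0.02 for complex IV and 0.44 for ATP synthase. Cyc1, cytochrome c1, was at 60.5, 57.7, 15.4 and 62.9 FPKM (2.03) while Uqcrb of the same complex was at 147, 136, 355 and 175 FPKM (-1.02). Subunits of 1 complex thus stood on opposite sides, and in both cases E18.5 wild type was the outlying library. Cytosolic ribosomal proteins had 68 of 83 higher, 21 at least 2-fold higher and 1 at least 2-fold lower (median 0.63), the lower being Rps26 at 3672 FPKM in wild type against 1666 FPKM in mutant UGS. Mitochondrial ribosomal proteins had 62 of 75 higher and 16 at least 2-fold (0.54), proteasome subunits 32 of 36 and 5 (0.55), and ribosome biogenesis and tRNA genes 53 of 68 and 15 (0.48). With the trend subtracted, the medians of cytosolic and mitochondrial ribosomal proteins were 0.10 and 0.16.

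Cholesterol synthesis had 23 of 25 higher and 7 at least 2-fold, with a median of 0.81, and E18.5 mutant was the highest library for 18 (72%). The regulators of the pathway, Srebf1 and Srebf2, had log2 ratios of 1.31 and 0.93. Glycolysis had 26 of 28 higher and 6 at least 2-fold, with a median of 0.62. The lactate exporter Slc16a3 was at 12.7, 15.2, 5.86 and 22.3 FPKM (1.93) and Ldha at 238.4, 250.07, 176 and 318 FPKM (0.85), while Gapdh was at 1066 and 927 FPKM (-0.20). Hypoxia and metal response genes had 13 of 20 higher (65%, against 69.5% of all genes), with metallothionein Mt1 at 68.9 and 31.5 FPKM (-1.13). Heat shock and unfolded protein genes had 27 of 36 higher and 6 at least 2-fold (median 0.51). Immediate early genes, which respond quickly to stimuli, had 22 of 28 higher and 8 at least 2-fold, a median of 0.66, and -0.08 with the trend subtracted. Fos was at 4.41, 3.09, 2.13 and 6.202 FPKM (1.54) and Egr1 at 8.53 and 8.28 FPKM (-0.04).

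Cell division genes gave a median of 0.17, with 51 of 74 higher (68.9%, against 69.5% of all genes) and 6 at least 2-fold. Ccnd3, cyclin D3, was at 97.1, 104, 30.6 and 90.4 FPKM (1.56) and Mki67, the proliferation antigen, at 40.8, 44.2, 62.1 and 37.7 FPKM (-0.72). Both had E18.5 wild type as the outlying library, in opposite directions. Centrosome genes were centred at 0.03, splicing genes at 0.10 and apoptosis regulators at 0.32. In the last list 11 of 50 were at least 2-fold higher, led by Bok, a death effector of the Bcl2 family, at 14.9, 16.8, 2.80 and 22.7 FPKM (3.02). Guidance genes had 44 of 65 higher (67.7%, against 69.5% of all genes) and 10 at least 2-fold, with a median of 0.30 against 0.31.

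Chromatin regulators were lower in the mutant more often than higher, with 35 of 91 higher, 1 at least 2-fold higher, 2 at least 2-fold lower and a median of -0.12. E18.5 wild type was the highest library for 44 (48.4%, against 22.4% of all genes) and E18.5 mutant for 0. Mll5 was at 23.6, 21.8, 49.1 and 19.6 FPKM (-1.33) and the acetyltransferase Crebbp at 20.8 and 10.6 FPKM (-0.97). Polr2a, the largest subunit of RNA polymerase II, was at 39.4, 37.6, 88.2 and 29.4 FPKM (-1.58) and was chosen after its value was seen. Zinc finger genes of the Zfp family had 160 of 298 higher, with a median of 0.05. Imprinted and insulin-like growth factor genes had 15 of 36 higher, a median of -0.06 and 3 at least 2-fold lower, Plagl1 (82.3, 61.7, 206 and 79.8 FPKM, -1.36), Mirg and Kcnq1ot1. Igf2 was at 553 and 399 FPKM (-0.47), H19 at 940 and 859 FPKM (-0.13) and Igfbp2 at 82.4 and 241 FPKM (1.55).

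The most extreme ratios belonged to short and predicted rows. Of the 15 highest ratios at 10 FPKM or more, 6 were Gm rows of predicted genes, with 1 LOC row, 1 microRNA row and 1 small noncoding RNA, beside H3f3c, Bok, P2rx1, Psd, Alas2 and Hbb-b1, and of the 15 lowest 4 were Gm, 5 LOC, 1 microRNA and 4 small noncoding RNA. Rn7sk, the 7SK RNA that holds the elongation factor P-TEFb, was at 81.6, 40.0, 637 and 34.4 FPKM (-4.21). Rnu1b6 of the U1 spliceosomal RNAs was at 6.37, 0.731, 44.9 and 1.55 FPKM (-4.85) and Rpph1, the RNA of ribonuclease P, at 8.60, 1.91, 11.6 and 1.52 FPKM (-2.93). For both, E16.5 wild type also lay above E16.5 mutant. Nuclear noncoding RNAs as a list had 10 of 23 higher and 5 at least 2-fold lower, namely Rn7sk, Rpph1, Rmrp (27.1 and 9.45 FPKM, -1.52), Kcnq1ot1 and Mirg, while Malat1 was at 228 and 183 FPKM (-0.31). Replication-dependent histones, whose messages lack a poly(A) tail, had 31 of 40 higher, 13 at least 2-fold higher and 6 at least 2-fold lower. LOC rows had 22.6% at least 2-fold higher and 20.7% lower, against 14.2% and 1.46% of genes with other names. Many of these rows are near-identical copies of expressed genes, so that reads may have been divided among copies, and their values are uncertain.

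A few rows held much of the signal. The 20 genes with the highest mean made up 17.3% of the FPKM sum in wild type and 24.0% in the mutant. The row LOC100503984 was listed at 0 in the other 3 libraries and at 8014.5 FPKM in E18.5 mutant, and Mir719 was at 200.3, 188, 10812 and 499 FPKM. In all, 17 genes were listed at 0 in wild type and 4 in the mutant, and apart from Hbb-y these were predicted, LOC, microRNA or small nucleolar RNA rows. No fold is given for them. The FPKM of all rows summed to 375826 in E18.5 wild type and 504136 in E18.5 mutant.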

How the data were processed

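RNA from whole UGS of 3 male embryos per genotype and stage was pooled by the authors into 1 library each, made with a stranded single-end kit, and the submitters' processing notes name Trimmomatic 0.30, TopHat2 2.1.0 and Cufflinks 2.2.1. The deposited values are FPKM per gene, computed by the authors with Cufflinks, and hold no counts. The genome build behind them is not given in the sources used here.

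Rows that reached 1 FPKM in E18.5 wild type, E18.5 mutant or both were kept. The log2 ratio of mutant over wild type was taken as deposited, centred on its median, and with a lowess trend (span 0.3) subtracted. That trend was over the length and GC content of the longest GENCODE transcript of each gene. No pseudocount was used, and genes listed at 0 have no ratio. Depth was estimated from the smallest value steps of olfactory receptor genes, and read numbers follow from it for genes with a transcript length. With 1 pooled library per group no test was possible, and p-values and errors are not given.

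The text names Tbx18, the 15 highest and 15 lowest ratios (10 FPKM or more in one library, 1 FPKM or more in the other), the 20 highest means, the genes of the study's RNA-Seq account and primer list, and per list the 3 highest means and largest differences each way, with members that alone make a count of 5 or fewer. This rule gave 134 of the 185 genes named, and some genes it gives are not reported here. The others were 12 defining markers and 39 genes chosen after their values were seen, many from the search for genes apart in 1 library or for their role in a pathway. The members and the 65 gene lists were chosen with earlier results of these data known. The fold and ratio steps were tested on simulated data. Analyses used Python 3.11.15 with pandas 2.3.3, numpy 2.4.6 and statsmodels 0.14.6. The alternatives tried were other scalings, pseudocounts, filters on low values, repeated symbols left out, and E16.5 wild type as the reference.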

Additional observations from a re-analysis of the deposited data

Results flagged for a closer look

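For 3 gene lists the E18.5 and E16.5 pairs of libraries gave medians of opposite sign. With 1 library per group this difference was not tested. For the 39 smooth muscle contractile genes the median log2 ratio of mutant over wild type was 0.80 at E18.5, with 32 genes higher in the mutant, and -0.48 at E16.5, with 2 genes higher. For the 9 neutrophil and stefin genes it was -0.59 at E18.5, with 0 genes higher, and 1.88 at E16.5, with 9 higher. For the 6 hepatocyte genes it was -1.18 at E18.5, with 2 higher, and 1.64 at E16.5, with 6 higher. Of these 6, the 3 that were at least 2-fold lower at E18.5, Alb and Apoa1 among them, passed the filter only through E18.5 wild type. With at least 1 FPKM required in both E18.5 libraries, the hepatocyte median at E18.5 turned positive.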

How the results depend on the processing

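As deposited, 2231 genes were at least 2-fold higher and 426 lower, 84.0% of them higher. The counts became 1152 and 828 (58.2% higher) when ratios were centred on their median, 895 and 1153 (43.7%) with equal column sums, 1292 and 750 (63.3%) with equal 75th percentiles, and 647 and 909 (41.6%) with the length and GC trend subtracted. They were 1364 and 273 with a pseudocount of 1 FPKM and 4231 and 1449 (74.5%) without a filter on low values. A minimum of 5 FPKM in either library left 243 lower genes and a share of 86.2%, and 1 FPKM in both gave a share of 85.4%. With E16.5 wild type in place of E18.5 wild type the counts were 182 and 189 (49.1%), and the reference then differs in stage. The cause of these shifts was not tested. Leaving out repeated symbols and pseudocounts of 0.01 and 0.1 FPKM kept the counts within 1.5 times.

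With the trend subtracted, 24 of 64 list medians went from above 0 to below 0 and 0 went the other way, among them Notch (0.42 to -0.046) and replication-dependent histones (0.44 to -0.15). Of the lists whose median lay at least 1.5-fold from equal levels, that of the immediate early genes turned to -0.083 with the trend subtracted, that of the Wnt ligands to -0.091 against E16.5 wild type, and that of the hepatocyte genes to 0.71 at 5 FPKM in either library, where 1 gene was left, 0.24 at 1 FPKM in both and 0.75 against E16.5 wild type. Among the genes named, 30 that were at least 2-fold apart at E18.5 had the opposite sign when E16.5 wild type was the reference, and 0 did under any other setting. Those that turned negative were Myoz1 (-0.98), Cldn7 (-0.37), Prss27 (-0.71), Hoxa6 (-0.55), Hoxc11 (-0.29), Hoxb13 (-0.60), Wnt4 (-0.45), Wnt6 (-0.0886), Wnt7b (-0.33), Gli1 (-0.0758), Fgfr3 (-0.55), Dll4 (-0.11), Rxrb (-0.0781), Emilin1 (-0.0404), Uchl1 (-0.0703), Slc18a3 (-0.52), Wnt9b (-0.0381), Srebf1 (-0.0464), Ccnd3 (-0.10) and H3f3c (-0.0104). Those that turned positive were Hspb6 (1.19), Pcp4 (0.56), Sprr1a (0.43), Hoxb8 (0.0437), Thy1 (0.13), Npy (0.0774), Uqcrb (0.26), Rps26 (0.0748), Mt1 (0.28) and Mir719 (1.32). No paired analysis was possible because each genotype had 1 library per stage and no result comes from a test, and no library could be left out. The depth of E18.5 wild type, the lowest of the 4, limits ratios of genes near 1 FPKM.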
